A study of Mus musculus with 21 samples.

Results

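In mouse dorsal root ganglia, which hold the cell bodies of sensory neurons of the trunk and limbs, RNA levels were described for 9 marker genes of the nonpeptidergic neurons called NP1: Cd55, Plxnc1, Prkcq, Gna14, Wnt2b, Agtr1a, Klf5, Lpar3 and Lpar5. The genes were chosen by name, as markers of the Mrgprd-expressing class other than Mrgprd itself, with earlier results of these data known. All 9 were present among the 24381 genes that both deposited count tables share. Values were available for 21 libraries of bulk RNA sequencing. The CFA model (an abbreviation that usually stands for complete Freund's adjuvant, an oil emulsion that inflames tissue, though the labels do not say so) was represented by 4 libraries of Tmem45b-flox::Mrgprd-cre mice (cKO) and 4 of Tmem45b-flox mice (flox). Untreated ganglia formed 2 sets named for their library codes: the con/ko set with 4 cKO and 3 flox libraries, and the LDRG set with 3 cKO and 3 flox libraries. Every group carried the floxed Tmem45b gene. The cKO mice also carried Mrgprd-cre, a recombinase directed to the neurons these markers describe. The labels give no age, sex, strain or number of animals per library.

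NP1 neurons are small unmyelinated nociceptors that end in the outer layer of the skin, bind isolectin B4 and lack the peptides CGRP and substance P. Their identity depends on the transcription factor Runx1 and the GDNF-family receptor Ret, and Mrgprd is a receptor for beta-alanine, which causes itch. Of the 9 markers, Lpar3, Lpar5 and Agtr1a encode G-protein-coupled receptors, for lysophosphatidic acid and angiotensin II, and Plxnc1 encodes a plexin that binds semaphorin 7A. Cd55 is a membrane protein that limits complement activation, and Wnt2b is a secreted ligand. Gna14 encodes a G protein subunit of the Gq family, Prkcq the diacylglycerol-dependent kinase PKC theta, and Klf5 a zinc finger transcription factor.

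Total counts per library lay between 53364389 and 72502294, and the lowest count of any member in any library was 372, for Lpar5. The labels do not tie libraries to separate animals, so the p-values here rest on the spread among libraries, some of which may be technical. Replicates of a group differed beyond sampling noise in all 27 pairs, with chi-square per degree of freedom of 27.1 to 151. Summed levels of 10 pan-neuronal genes were 6957 to 9800 CPM (counts scaled to a common library size after TMM adjustment) across all libraries, so neuronal RNA was present throughout. Tmem45b, the targeted gene, checks the labels: it lay at 68.6 to 89.1 CPM in cKO and 148 to 179 CPM in flox con/ko libraries, and at 59.9 to 72.2 CPM in cKO and 124 to 145 CPM in flox LDRG libraries. In the CFA model the libraries labelled cKO had 108, 105, 67.6 and 61.8 CPM and those labelled flox 65.9, 116, 136 and 80.2 CPM, so the genotype labels of the CFA libraries were not separated by Tmem45b. In bulk tissue, fewer cells of a type and less RNA per cell cannot be told apart.

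The 9 markers lie at separate loci of mm10 (GENCODE vM21 gene models, whole gene with exons, introns and untranslated regions). Cd55 spans chromosome 1 from 130439027 to 130462744 on the minus strand, Plxnc1 chromosome 10 from 94790866 to 94944835 (minus), Prkcq chromosome 2 from 11172108 to 11301222 (plus) and Gna14 chromosome 19 from 16435762 to 16610820 (plus). Wnt2b lies on chromosome 3 from 104945272 to 104961921 (minus) and Lpar3 on the same chromosome from 146220963 to 146286186 (plus). Agtr1a lies on chromosome 13 from 30336441 to 30382867, Klf5 on chromosome 14 from 99298691 to 99315036 and Lpar5 on chromosome 6 from 125067920 to 125082472, all on the plus strand. Exons of Cd55 share 102 bases with the antisense gene Gm16083, and exons of Plxnc1 share 115 bases with Gm48718 on the same strand, so reads there cannot be assigned where counting ignored strand or allowed overlap. Exons of the other 7 shared no base with an annotated gene.

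Per kilobase of exon, Cd55 was the most abundant marker. In flox LDRG libraries its level was 120 CPM per kilobase ± 3.57 (SD, n = 3), ahead of Plxnc1 at 49.1 ± 0.42, Gna14 at 30.7 ± 1.29, Lpar3 at 22.8 ± 3.27 and Prkcq at 17.6 ± 1.11. A second tier held Klf5 at 6.01 ± 0.68, Agtr1a at 5.78 ± 0.42, Lpar5 at 4.74 ± 0.84 and Wnt2b at 3.68 ± 0.65 CPM per kilobase, where neighbours in the order did not differ beyond their spread. Over all 21 libraries the mean levels per kilobase kept the first 5 in that order (116, 46.9, 28.4, 25.1 and 17.4). The widest range across libraries was that of Cd55, whose highest level in CPM (860, cKO CFA library 4) was 2.26 times its lowest (381, cKO con/ko library 4). Ratios for the other members ran from 1.99 for Wnt2b and 1.91 for Lpar3 down to 1.37 for Gna14.

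**Figure D1:**
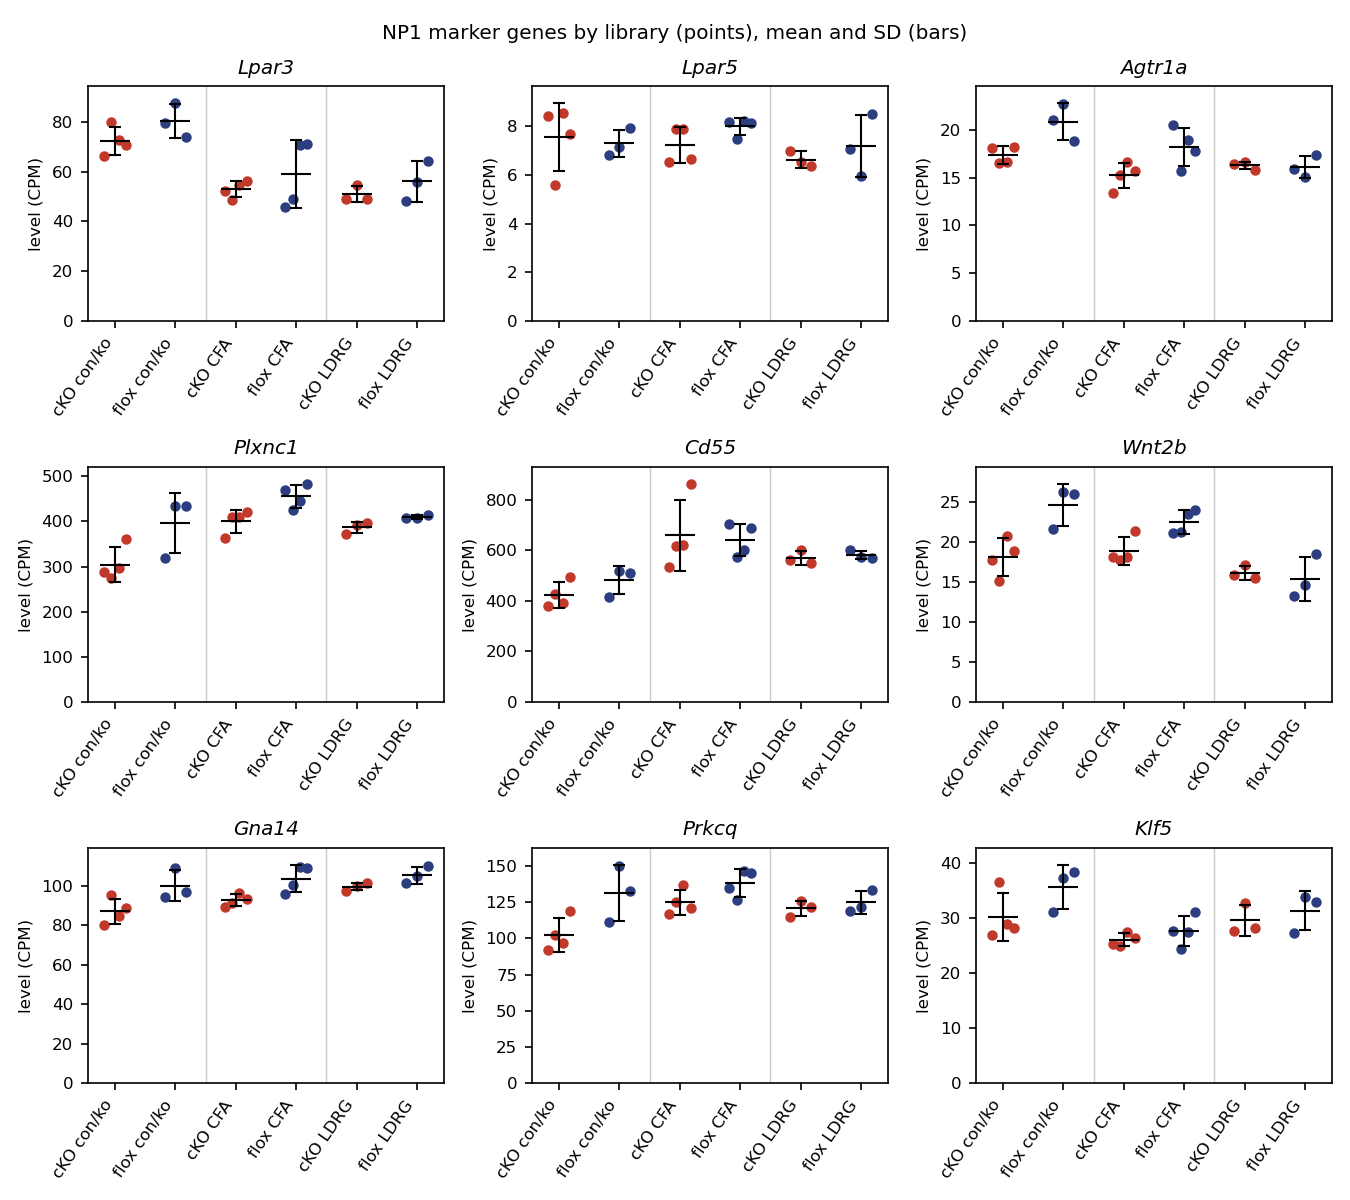
Level of each NP1 marker (CPM, vertical axis from 0) in every library, by name set and genotype; points are libraries, horizontal marks are group means and whiskers are SD. Lpar3 lay at 66.5 to 87.4 CPM in the con/ko set and at 48.2 to 64.3 CPM in the LDRG set, and Cd55 at 381 to 518 CPM in the con/ko set and at 549 to 601 CPM in the LDRG set.

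Promoter sequences of the 5 markers on which the comparisons between sets and library codes turn are shown so that they can be compared beside the values that follow. Each runs from 250 bases before to 50 bases after the annotated start, 5′ to 3′ on the gene's strand, from RefSeq on GRCm38.p6; capitals mark GC boxes (GGGCGG, or CCGCCC on the other strand), the element bound by Sp and Klf zinc finger factors. The windows are chr1:130462695-130462994 for Cd55 (minus), chr10:94944796-94945095 for Plxnc1 (minus), chr2:11172132-11172431 for Prkcq (plus), chr3:104961660-104961959 for Wnt2b (minus) and chr3:146220711-146221010 for Lpar3 (plus).
Cd55: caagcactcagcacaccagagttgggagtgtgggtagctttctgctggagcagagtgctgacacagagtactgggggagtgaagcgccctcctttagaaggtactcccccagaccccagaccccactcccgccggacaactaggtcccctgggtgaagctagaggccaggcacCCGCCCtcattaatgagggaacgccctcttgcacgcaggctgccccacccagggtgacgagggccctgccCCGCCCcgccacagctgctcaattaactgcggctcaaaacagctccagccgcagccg
Plxnc1: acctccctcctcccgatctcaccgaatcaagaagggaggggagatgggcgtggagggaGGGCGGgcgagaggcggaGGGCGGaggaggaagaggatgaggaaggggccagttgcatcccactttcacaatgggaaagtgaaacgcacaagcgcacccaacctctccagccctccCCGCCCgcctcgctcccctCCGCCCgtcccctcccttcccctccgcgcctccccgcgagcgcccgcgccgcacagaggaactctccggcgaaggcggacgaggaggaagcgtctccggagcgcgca
Prkcq: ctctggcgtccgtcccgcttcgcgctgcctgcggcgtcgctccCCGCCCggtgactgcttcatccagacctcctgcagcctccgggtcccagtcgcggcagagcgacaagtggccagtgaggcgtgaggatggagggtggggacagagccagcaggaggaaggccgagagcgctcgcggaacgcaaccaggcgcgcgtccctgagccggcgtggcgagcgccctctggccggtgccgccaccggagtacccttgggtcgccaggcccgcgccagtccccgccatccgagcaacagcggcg
Wnt2b: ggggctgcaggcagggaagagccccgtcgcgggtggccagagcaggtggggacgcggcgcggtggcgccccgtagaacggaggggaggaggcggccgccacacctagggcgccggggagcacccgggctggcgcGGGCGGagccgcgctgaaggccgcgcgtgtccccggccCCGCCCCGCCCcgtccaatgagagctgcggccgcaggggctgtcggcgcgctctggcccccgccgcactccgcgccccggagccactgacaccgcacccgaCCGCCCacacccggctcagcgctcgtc
Lpar3: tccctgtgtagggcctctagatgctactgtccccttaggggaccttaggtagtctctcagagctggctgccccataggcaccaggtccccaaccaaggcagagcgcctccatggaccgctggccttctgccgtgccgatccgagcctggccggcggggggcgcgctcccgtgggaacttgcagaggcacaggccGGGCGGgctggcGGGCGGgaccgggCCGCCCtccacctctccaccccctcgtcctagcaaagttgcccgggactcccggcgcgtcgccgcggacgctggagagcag

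Plxnc1 and Wnt2b each held 4 GC boxes, a pair of those in Wnt2b sharing 1 base, while Lpar3 held 3, Cd55 held 2 and Prkcq held 1. RefSeq windows were matched for 7 of the 9 members (8 windows, Lpar5 having 2), with none for Agtr1a and Klf5. A GC box was found in 6 of the 7 members, Gna14 being the exception, and in 35.7% of 32851 promoter windows of all genes. The CACCC box CCACCC, another zinc finger element, was found in 4 members and 31.5% of all windows, and the RUNX core (TGTGGT or TGCGGT) in 2 members and 22.4% of all windows, each searched on both strands. The TATA box TATAAA was found in 0 members (13.6% of all windows), and the cyclic AMP response core TGACGTCA in 0 members (1.79% of all windows). Matches of different motifs did not overlap in the member windows, whose median GC content was 66.2%, against 52.7% over all windows. These matches describe letters in the windows and not binding.

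The first comparison asked whether the NP1 markers differ between ganglia of cKO and of flox mice. In untreated ganglia (both sets in 1 fit, name set as a term) all 9 markers had lower fitted levels in cKO than in flox libraries, by small amounts, and 0 of 9 passed the test over all genes. The median log2 difference of the members was -0.15, against -0.00 over all 16706 genes tested, of which 50.6% were below 0. In edgeR's quasi-likelihood test 0 of 9 were called at an adjusted p under 0.05, where 0.00599% of all genes were called (1 gene, Tmem45b, at -1.02, SE 0.07), and DESeq2 also called 0 members. An unadjusted p under 0.05 was reached by 4 of 9 members and by 6.73% of all genes. Those 4 were Plxnc1 at -0.25 (SE 0.09), Prkcq at -0.22 (SE 0.08), Gna14 at -0.15 (SE 0.05) and Lpar3 at -0.15 (SE 0.07), with 95% intervals that ran from -0.44 to -0.06 for Plxnc1 and from -0.25 to -0.05 for Gna14. Over the members, adjusted p ran from 0.662 to 0.982 by edgeR.

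The genotypes stood further apart in the con/ko set. Plxnc1 had 287, 274, 297 and 360 CPM in cKO con/ko libraries, against 320, 433 and 435 CPM in flox con/ko libraries. Wnt2b had 17.8, 15.1, 20.8 and 18.9 CPM in cKO con/ko libraries, against 21.6, 26.2 and 26.0 CPM in flox con/ko libraries. For Wnt2b every cKO library lay below every flox library, whereas for Plxnc1 the highest cKO library lay above the lowest flox library. Agtr1a had 18.04, 16.5, 16.6 and 18.2 CPM in cKO con/ko libraries, against 20.99, 22.7 and 18.9 CPM in flox con/ko libraries, again without overlap. Groups did not overlap for these 2 of 9 members, as they did not for 7.69% of all genes. The fitted log2 difference was -0.44 for Wnt2b (SE 0.13), -0.38 for Plxnc1 (SE 0.14), -0.36 for Prkcq (SE 0.12) and -0.27 for Agtr1a (SE 0.10). Klf5 was at -0.25 (SE 0.12), Gna14 at -0.20 (SE 0.07), Cd55 at -0.19 (SE 0.11) and Lpar3 at -0.15 (SE 0.08), and Lpar5 stood the other way at 0.05 (SE 0.18). Of the cKO con/ko libraries 3 of 4 carry the letter C in their codes, against 1 of 3 flox libraries, and with that letter as a term the differences of Plxnc1, Prkcq and Cd55 moved to -0.22, -0.23 and -0.06. In edgeR's test 0 of 9 members were called (adjusted p of 0.549 to 0.977; 0 by DESeq2), where 0.243% of all genes were called, and an unadjusted p under 0.05 was reached by 5 of 9 members and 6.6% of all genes. The median over members was -0.25, with 8 of 9 below 0, where 47.6% of all genes were below 0. Two-sided exact permutation tests gave p = 0.0286 for Agtr1a, the smallest that 4 against 3 libraries allow, and p = 0.0571 for Wnt2b.

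Markers of other cell types also stood apart by genotype in that set. Of 16 lists of cell type markers, the summed level was lower in cKO than in flox con/ko libraries without overlap for NP2 neurons, vascular cells and skeletal muscle, and higher for the pan-neuronal list. NP2 genes, of nonpeptidergic itch neurons, summed to 29.2 to 35.6 CPM in cKO and 40.2 to 45.7 CPM in flox con/ko libraries, and vascular genes to 254 to 287 CPM in cKO and 319 to 346 CPM in flox con/ko libraries. The 4 genes of C-low-threshold mechanoreceptors, Slc17a8 (-0.68, SE 0.14), Th (-0.61, SE 0.22), Tafa4 (-0.50, SE 0.14) and Cdh9 (-0.45, SE 0.09), were further below 0 than every member and were not called by edgeR. Lower values in cKO con/ko libraries were thus not limited to NP1 markers. The summed level of 6 muscle genes was 2.64 to 11.4 CPM in cKO and 288.9 to 624.9 CPM in flox con/ko libraries, and 4 of the 6 were called lower in cKO. Prkcq is also expressed in skeletal muscle and T cells, so its con/ko values, 92.2, 102, 96.9 and 119 CPM in cKO and 112, 150 and 132 CPM in flox libraries, stand beside that difference. In the LDRG set Prkcq lay at 115 to 134 CPM in the 6 libraries. Its lowest level was in the library with the highest muscle sum (581 CPM, cKO library 1), which is 1 library, and no conclusion is drawn from it. The part of muscle RNA and of these other cells in the con/ko difference was not tested. Summed pan-neuronal genes were higher in cKO (7836 to 8177 CPM) than in flox con/ko libraries (6957 to 7682 CPM), the direction opposite to that of most NP1 markers. Single genes of that list were mixed, from 0.33 for Snap25 (SE 0.08) to -0.29 for Syt1 (SE 0.12), and none was called by edgeR. Scaled to those genes, the median of all genes moved by -0.15 and the members stood at -0.59 to -0.10, with 0 of 9 called by edgeR (lowest adjusted p = 0.123).

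In the LDRG set the genotypes were close together. Plxnc1 had 372.9, 392.2 and 395.4 CPM in cKO LDRG libraries, against 408.3, 407.2 and 413.8 CPM in flox LDRG libraries. Gna14 had 97.6, 100.1 and 101 CPM in cKO LDRG libraries, against 101, 105 and 110 CPM in flox LDRG libraries. These 2 of 9 members did not overlap between genotypes, as did not 10.2% of all genes, and the gap of Gna14 was narrow (101.32 against 101.35 CPM). Wnt2b had 15.9, 17.2 and 15.5 CPM in cKO LDRG libraries, within the range of flox LDRG libraries at 13.2, 14.6 and 18.5 CPM. Fitted differences were below 0 for 7 of 9 members (51% of all genes), with a median of -0.08, and were at 0.06 for Wnt2b (SE 0.13) and 0.01 for Agtr1a (SE 0.08). By edgeR 0 of 9 were called (adjusted p of 0.991 to 0.998, 0 with an unadjusted p under 0.05; 0 by DESeq2), where 0.0187% of all genes were called. Of the 16 lists of cell type markers, only vascular genes did not overlap, at 223 to 241 CPM in cKO and 242 to 333 CPM in flox LDRG libraries. With 3 libraries against 3, the smallest two-sided exact permutation p is 0.1, which Plxnc1 and Gna14 reached.

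Among CFA libraries, 8 of 9 markers had lower fitted levels in libraries labelled cKO than in those labelled flox, and the exception was Cd55. Plxnc1 had 363, 409, 409 and 420 CPM in libraries labelled cKO, against 468, 425, 445 and 482 CPM in libraries labelled flox, without overlap. It was the only member of 9 whose groups did not overlap, as did not 3.43% of all genes (two-sided exact permutation p = 0.0286, the smallest this design allows). Gna14 had 89.6, 91.4, 96.7 and 93.4 CPM in libraries labelled cKO, against 95.8, 100.5, 109 and 109 CPM in libraries labelled flox, which overlapped by 1 library on each side. Cd55 had 534, 618, 621 and 860 CPM in libraries labelled cKO, against 705, 575, 602 and 686 CPM in libraries labelled flox. Its difference of 0.05 (SE 0.14) was -0.11 without cKO CFA library 4, the highest of all 21. Agtr1a was at -0.25 (SE 0.10), Wnt2b at -0.24 (SE 0.09), Plxnc1 at -0.18 (SE 0.06) and Gna14 at -0.15 (SE 0.06), and the median over members was -0.15, where 47.5% of all genes were below 0. By edgeR 0 of 9 members were called (adjusted p of 0.938 to 0.982; 0 by DESeq2), and 0% of all genes were called, while 4 of 9 members and 4.96% of all genes had an unadjusted p under 0.05. Of the 16 lists of cell type markers, NP2 genes were lower without overlap in libraries labelled cKO (38.4 to 44.7 CPM, against 46.6 to 58.03 CPM in those labelled flox) and A-fibre genes higher, and their part was not tested. Tmem45b does not separate these labels, so the directions hold for the labels only.

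**Figure D2:**
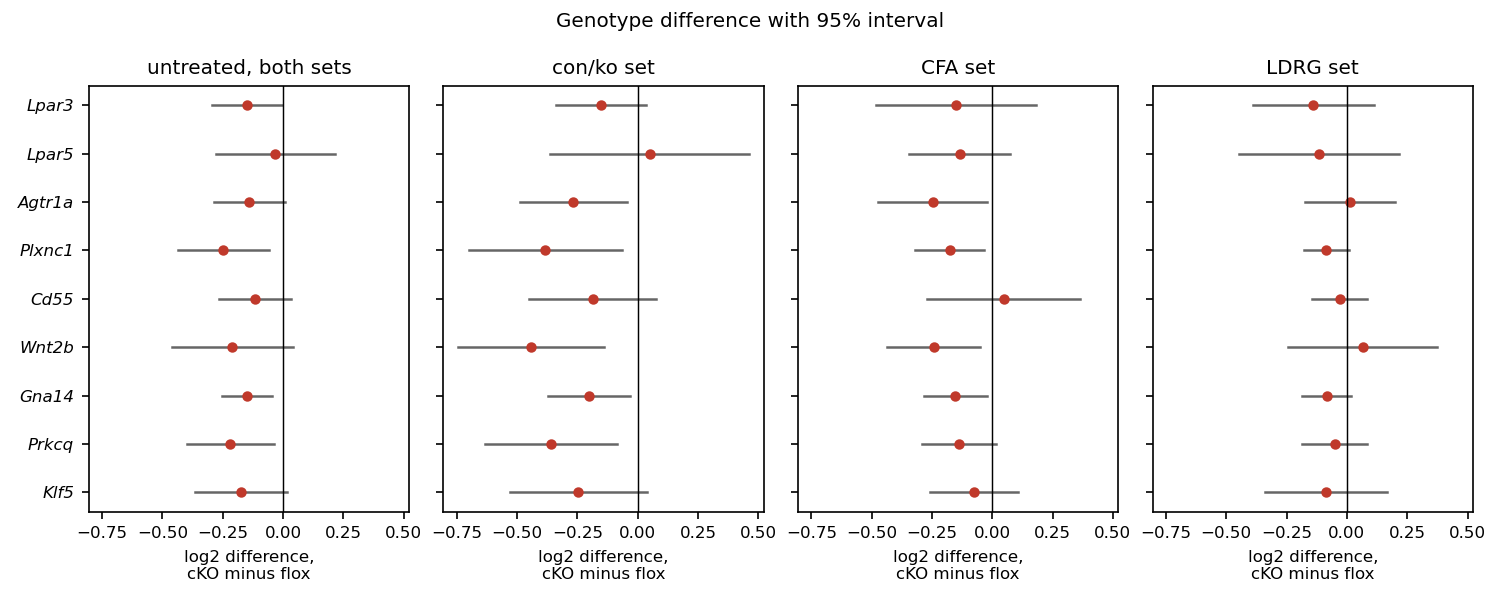
Log2 difference of cKO minus flox for each NP1 marker (horizontal axis, edgeR fit) in untreated ganglia, the con/ko set, the CFA model and the LDRG set; points are estimates and bars are 95% intervals. Estimates lay between -0.44 and 0.06 in the 4 comparisons, and 0 of 9 members passed the test over all genes in any of them.

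Mrgprd itself, the gene for which the Mrgprd-cre recombinase is named, did not follow the members throughout. It had 97.3, 68.5, 108 and 128 CPM in cKO con/ko libraries, against 91.6, 127 and 139 CPM in flox con/ko libraries. In the LDRG set it had 147, 148 and 153 CPM in cKO libraries, against 137, 125 and 130 CPM in flox libraries, so that cKO lay above flox without overlap. In the CFA model it averaged 146 CPM ± 23.5 in libraries labelled cKO and 175 ± 24.7 in those labelled flox (SD, n = 4 each). The log2 difference by edgeR was -0.25 in the con/ko set (SE 0.22), 0.19 in the LDRG set (SE 0.04, unadjusted p = 0.00398, adjusted p = 0.991) and -0.25 in the CFA model (SE 0.13), and Mrgprd was called in none of the 3.

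Whether the genotype difference depended on the untreated set was tested directly. The difference of the genotype differences, con/ko minus LDRG, was -0.52 for Wnt2b (SE 0.19, unadjusted p = 0.018 by edgeR), -0.32 for Prkcq (SE 0.15), -0.31 for Plxnc1 (SE 0.16) and -0.29 for Agtr1a (SE 0.11). By edgeR 0 of 9 members were called (adjusted p of 0.858 to 1; 0 by DESeq2), where 0.00599% of all genes were called, and 3 of 9 had an unadjusted p under 0.05, against 5% of all genes. No member was thus shown to differ more in the con/ko set than in the LDRG set. Between the CFA model and the LDRG set the same kind of test called 0 of 9 members and 0% of all genes by edgeR, with 0 members and 5.06% of genes at an unadjusted p under 0.05 (0 members by DESeq2). Wnt2b stood at -0.32 (SE 0.15) and Agtr1a at -0.27 (SE 0.14) there.

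Codes of the con/ko libraries carry a letter C or L, whose meaning the labels do not give, and 3 markers divided the set by that letter. The 4 C-coded libraries comprised 3 cKO and 1 flox, and the 3 L-coded libraries 1 cKO and 2 flox. Plxnc1 averaged 294 CPM ± 19.4 in C-coded libraries (n = 4) and 409 ± 42.7 in L-coded libraries (n = 3). Cd55 averaged 404 CPM ± 21.1 in C-coded and 508 ± 10.7 in L-coded libraries, and Prkcq 101 CPM ± 8.33 in C-coded and 134 ± 15.4 in L-coded libraries. Each C-coded library lay below each L-coded library for these 3 of 9 members, as was the case, in either direction, for 21.9% of all genes. Two-sided exact permutation p was 0.0286 for each of the 3, the smallest that 4 against 3 libraries allow.

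With genotype as a term, the log2 difference of C minus L was -0.38 for Plxnc1 (SE 0.07, adjusted p = 0.0504 by edgeR), -0.30 for Cd55 (SE 0.06, adjusted p = 0.0702) and -0.31 for Prkcq (SE 0.07, adjusted p = 0.0756). By edgeR 0 of 9 members were called, where 1.35% of all genes were called, and 3 of 9 had an unadjusted p under 0.05, against 19.3% of all genes. DESeq2 called Plxnc1, Cd55 and Prkcq, at adjusted p = 3.21e-05, 0.000434 and 0.00802, and called 8.93% of all genes it tested. C-coded libraries comprised 3 coded F and 1 coded M, and L-coded libraries 1 coded F and 2 coded M. With the F or M letter as a further term, an alternative chosen after seeing the data, Plxnc1 and Prkcq stood at -0.35 and Cd55 at -0.31, with 0 of 9 members and 0.0849% of all genes called by edgeR. The other 6 lay between -0.16 (Wnt2b, SE 0.14) and 0.02 (Lpar3, SE 0.09). For Plxnc1 cKO lay below flox within each letter, with 286 CPM in C-coded cKO (n = 3) and 320 in C-coded flox (1 library), and 360 in L-coded cKO (1 library) and 434 in L-coded flox libraries (n = 2). With the letter as a term, the con/ko genotype difference was -0.37 for Wnt2b and -0.25 for Agtr1a beside the values of Plxnc1, Prkcq and Cd55 given above, with 0 members called by edgeR.

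Other transcripts divided the con/ko set by the same letter. Mrgprd averaged 91.3 CPM ± 16.6 in C-coded and 131 ± 6.59 in L-coded libraries. The summed level of 5 spinal cord glia markers was 21.7 to 46.8 CPM in C-coded and 11.2 to 14.03 CPM in L-coded libraries, and all 5 were above 0 in C minus L, with Gfap, an astrocyte filament gene, called at 3.19 (SE 0.37). The 5 macrophage and 5 lymphocyte markers were all below 0, with Ptprc, a gene of leukocytes, called at -2.10 (SE 0.34). The median over the 10 pan-neuronal genes was 0.01. The part of these cells in the marker differences was not tested.

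**Figure D3:**
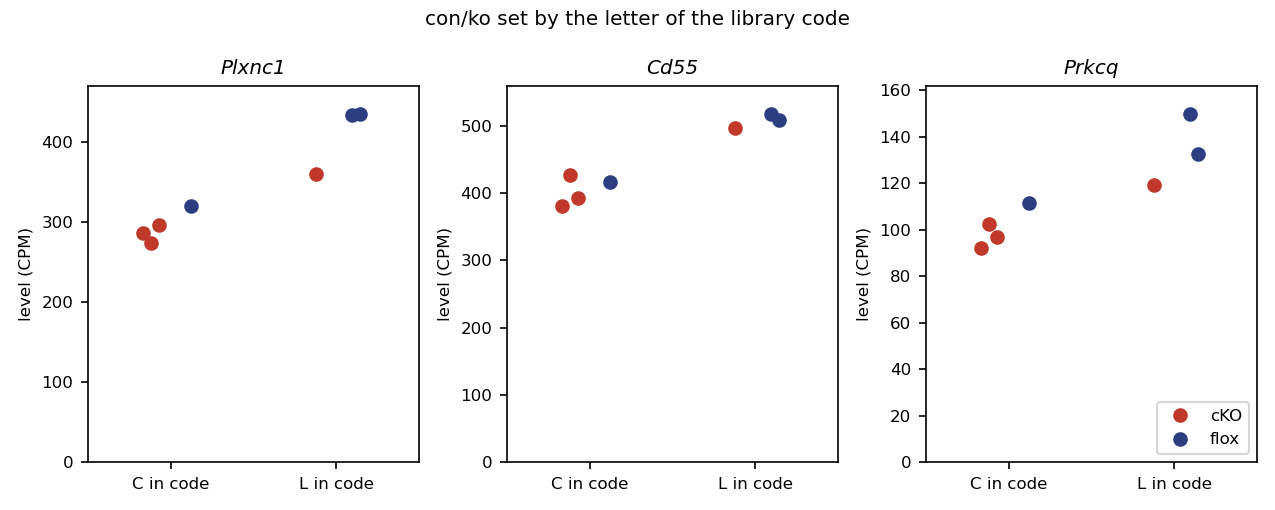
Levels of Plxnc1, Cd55 and Prkcq (CPM, vertical axis from 0) in the 7 con/ko libraries, grouped by the letter C or L of the library code and coloured by genotype; each point is a library. All 4 C-coded libraries lay below all 3 L-coded libraries for each gene, from 274 to 320 CPM against 360 to 435 CPM for Plxnc1.

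Between the untreated sets, 4 of 9 markers differed, in opposite directions. Lpar3, Wnt2b and Agtr1a were higher in con/ko than in LDRG libraries, and Cd55 was lower. Lpar3 had 66.5, 80.0, 72.9 and 70.7 CPM in cKO and 79.6, 87.4 and 73.9 CPM in flox con/ko libraries, against 49.2, 54.6 and 49.0 CPM in cKO and 48.2, 55.8 and 64.3 CPM in flox LDRG libraries. Its level in every con/ko library was above that in every LDRG library. Cd55 had 381, 426, 393 and 496 CPM in cKO and 417, 518 and 509 CPM in flox con/ko libraries, against 562, 600 and 549 CPM in cKO and 601, 572 and 570 CPM in flox LDRG libraries. Here every con/ko library lay below every LDRG library. Groups did not overlap for these 2 of 9 members, against 25.0% of all genes. Two-sided exact permutation p was 0.000583 for Lpar3, the smallest that 7 against 6 libraries allow, and 0.00175 for Cd55.

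The fitted log2 difference of con/ko minus LDRG was 0.53 for Lpar3 (SE 0.07, adjusted p = 4.9e-05 by edgeR), 0.42 for Wnt2b (SE 0.12, adjusted p = 0.0103), 0.24 for Agtr1a (SE 0.07, adjusted p = 0.0117) and -0.34 for Cd55 (SE 0.07, adjusted p = 0.00152). These 4 calls of 9 stand against 47.3% of all genes called (4358 higher and 3551 lower), so the share of members called was near the background. Gna14 was at -0.12 (SE 0.05, adjusted p = 0.0507 by edgeR) and Plxnc1 at -0.19 (SE 0.09, adjusted p = 0.0891), and DESeq2 called these as well (6 of 9 members, against 50.3% of all genes it tested). Prkcq, Klf5 and Lpar5 were at -0.08, 0.12 and 0.13 and were called by neither. The sets were deposited in separate tables, so a difference between tables in handling and one between ganglia cannot be told apart. Xist, an RNA of the silenced X chromosome, stood at 284 to 320 CPM in the 4 con/ko libraries whose codes carry an F, at up to 0.21 CPM in the 3 whose codes carry an M and at up to 0.33 CPM in all 6 LDRG libraries. With the 3 M-coded con/ko libraries alone against the 6 LDRG libraries, an alternative chosen after seeing the data, Lpar3 stood at 0.46, Wnt2b at 0.48, Cd55 at -0.29 and Gna14 at -0.17, and edgeR called these 4 of 9, where 39.3% of all genes were called. Agtr1a stood at 0.15 there and was not called (adjusted p = 0.119 by edgeR). With the C or L letter as a term, L-coded libraries represent the con/ko set. In that fit 4 of 9 members were called, among them Lpar3, Cd55 at -0.17 and Wnt2b at 0.57.

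Levels of cell type markers also differed between the untreated sets. Of 10 pan-neuronal genes, 8 were called lower in con/ko than in LDRG libraries (median -0.38), as were 5 of 6 peptidergic and 5 of 7 A-fibre genes. On the pan-neuronal scale described next, 3 of each were called lower, while 1 peptidergic and 2 A-fibre genes were called higher. Red cell (5 of 5), macrophage (5 of 5), fibroblast (4 of 4), myelinating Schwann cell (5 of 6) and vascular (4 of 6) genes were called higher. Satellite glia genes were mixed: Ednrb (-0.70, SE 0.08) and Kcnj10 (-0.48, SE 0.09) were called lower and Fabp7 (1.24, SE 0.23) higher. These counts stand beside 47.3% of all genes called. When libraries were scaled to the pan-neuronal genes instead of to all transcripts, the median of all genes moved by 0.32, 95.5% of the genes called were higher in con/ko (55.1% on the scale of all transcripts) and 7 of 9 members were called, all higher, where 63.8% of all genes were called. Relative to the median of all genes on that scale, which stood at 0.36, Lpar3 was 0.49 above it, Wnt2b 0.38 above it and Agtr1a 0.20 above it, and Cd55 was at -0.38. Cd55 itself stood at -0.02 on that scale (adjusted p = 0.858 by edgeR), and Plxnc1 (0.13), Gna14 (0.20) and Prkcq (0.24) changed direction. Rescaling moves all genes by about the same amount, so the order of the members and their distances from the median could hardly change. The directions of Plxnc1, Prkcq and Gna14 depended on the scale.

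Between the CFA model and the untreated LDRG libraries of the same table, Wnt2b was the member that rose. It had 18.2, 17.7, 18.1 and 21.4 CPM in libraries labelled cKO and 21.1, 21.3, 23.5 and 24.0 CPM in those labelled flox in the CFA model. Against these, LDRG libraries had 15.9, 17.2 and 15.5 CPM (cKO) and 13.2, 14.6 and 18.5 CPM (flox). Within each labelled genotype every CFA library lay above every LDRG library, but over all libraries 1 LDRG library overlapped the CFA range. Among cKO libraries 3 of 9 members did not overlap, against 20.4% of all genes: Wnt2b above, and Gna14 (89.6 to 96.7 CPM in CFA, 97.6 to 101 CPM in LDRG libraries) and Klf5 (24.9 to 27.5 CPM in CFA, 27.6 to 32.8 CPM in LDRG libraries) below. Among flox libraries 2 of 9 did not overlap, against 20.5% of all genes, Wnt2b and Plxnc1, the second at 425 to 482 CPM in CFA and 407 to 414 CPM in LDRG libraries. Across all 14 libraries 0 of 9 members were without overlap, against 6.27% of all genes. The log2 difference was 0.38 as the mean of genotypes (SE 0.08, adjusted p = 0.00582 by edgeR), and the two-sided exact permutation p over the 14 libraries was 0.00266, where the smallest possible is 0.000333.

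As the mean of genotypes, 1 of 9 members was called, against 16.9% of all genes. Klf5 was at -0.18 (SE 0.07, adjusted p = 0.0794 by edgeR), Plxnc1 at 0.10 (SE 0.04, adjusted p = 0.103) and Cd55 at 0.18 (SE 0.09, adjusted p = 0.201). Among flox libraries 1 of 9 was called (6.82% of all genes), Wnt2b at 0.54 (SE 0.11, adjusted p = 0.0116 by edgeR), and that call was lost without flox LDRG library 1 (0.43) or 2 (0.50). Among cKO libraries 0 of 9 were called by edgeR (2.61% of all genes; 0 with an unadjusted p under 0.05; 0 by DESeq2), with Wnt2b at 0.22 (SE 0.11, adjusted p = 0.277). That the increase differed between labelled genotypes was not shown, since the test of the difference gave the -0.32 (SE 0.15) for Wnt2b above.

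Sex-linked expression moved with this comparison: the lowest Xist level was 283 CPM among CFA libraries and its highest among LDRG libraries was 0.33 CPM, so treatment and that difference cannot be told apart. In the con/ko set, whose codes also carry F or M, Wnt2b averaged 20.2 CPM ± 4.84 in F-coded (n = 4) and 21.9 ± 3.67 in M-coded libraries (n = 3). The letters F and M were not balanced there over genotype or over the letters C and L. The part of sex-linked differences in the Wnt2b difference was not tested. Fibroblast (4 of 4), red cell (5 of 5) and macrophage (3 of 5) genes were called higher in CFA than in LDRG libraries, and 4 of 10 pan-neuronal genes lower (median -0.14). Of satellite glia genes, Ednrb (-0.50, SE 0.07) and Kcnj10 (-0.27, SE 0.06) were called lower and Fabp7 (0.55, SE 0.10) higher. Of all genes 16.9% were called. The part of these cells in the Wnt2b difference was not tested. Scaled to the pan-neuronal genes, the median of all genes moved by 0.14 and 95.4% of the genes called were higher in CFA libraries (56.4% on the scale of all transcripts). On that scale 5 of 9 members were called as the mean of genotypes, where 32.4% of all genes were called, and 4 of 9 among flox libraries, where 18.7% were. The 5 were Wnt2b at 0.51, Cd55 at 0.31, Lpar5 at 0.28, Plxnc1 at 0.24 and Prkcq at 0.23, of which Wnt2b stood 0.38 and Cd55 0.18 above the median of all genes. The con/ko and CFA comparisons share the LDRG libraries: Wnt2b stood at 0.42 in the first and 0.38 in the second, Lpar3 at 0.53 and 0.07, Agtr1a at 0.24 and 0.04, and Cd55 at -0.34 and 0.18.

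**Figure D4:**
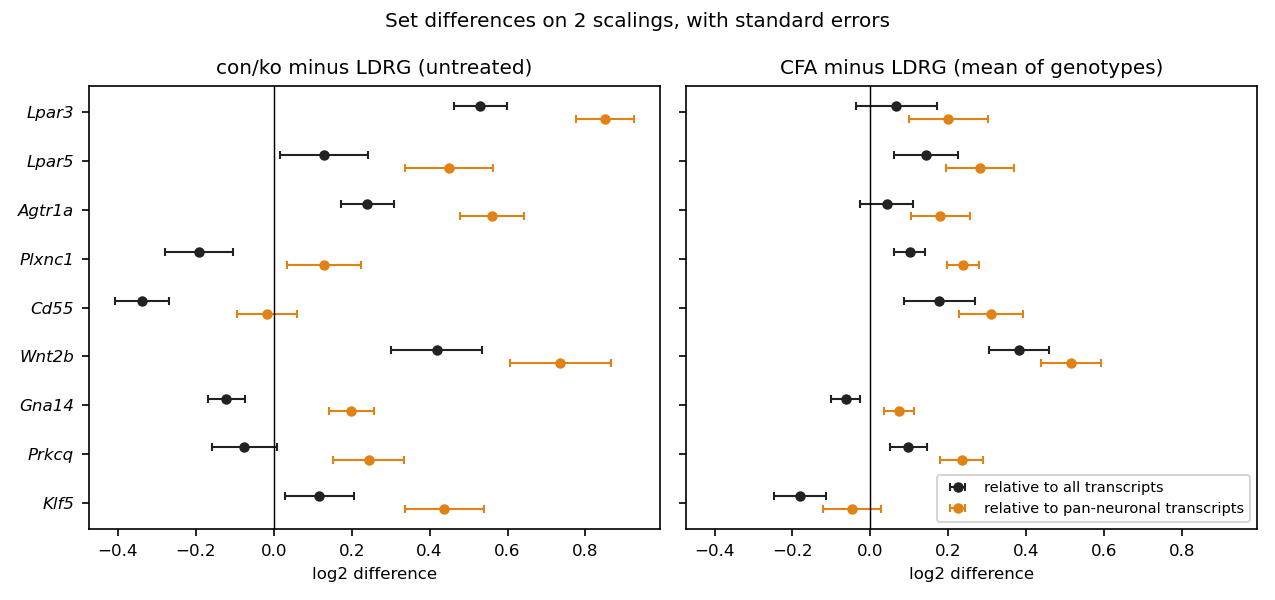
Log2 difference of each NP1 marker between con/ko and LDRG libraries and between CFA and LDRG libraries (horizontal axis), scaled to all transcripts and to 10 pan-neuronal genes; points are edgeR estimates and bars are SE. Wnt2b lay above 0 in both comparisons on both scales (0.42 and 0.38 scaled to all transcripts), and Cd55 lay at -0.34 in the first and 0.18 in the second on the scale of all transcripts.

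Partner genes of the members' pathways were read from 8 lists. In the 4 genotype comparisons 0 of their 68 tested genes were called by edgeR. An unadjusted p under 0.05 was reached by 3 to 8 of them (4.41% to 11.8%), and by 4.56% to 6.73% of all genes. Rises and falls below are genes called by edgeR. Of all genes, 47.3% were called in con/ko minus LDRG and 16.9% in CFA minus LDRG as the mean of genotypes. Values below are on the scale of all transcripts, with those on the pan-neuronal scale where the direction or a called fall did not hold there. For the ligand side of Lpar3 and Lpar5, Enpp2, which makes lysophosphatidic acid, was higher in con/ko than in LDRG libraries at 0.67 (SE 0.10) and in CFA than in LDRG libraries at 0.30 (SE 0.05). Plpp1, a phosphatase that degrades it, was lower in both, at -0.31 (SE 0.06) and -0.16 (SE 0.04), but stood at 0.01 and -0.03 on the pan-neuronal scale, where it was not called. On the scale of all transcripts, 3 of 8 genes rose and 1 fell in con/ko, and 2 rose and 2 fell in CFA libraries, the receptor gene Lpar4 standing at 0.57 (SE 0.12) in CFA libraries.

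In the angiotensin list beside Agtr1a, 1 of 6 tested genes rose and 1 fell in con/ko libraries, and 1 rose and 2 fell in CFA libraries. Ace, the converting enzyme, was at 0.77 (SE 0.10) and the paralogous receptor gene Agtr1b at -0.71 (SE 0.11) in con/ko minus LDRG. In CFA minus LDRG, the second receptor Agtr2 was at 0.71 (SE 0.19), the precursor gene Agt at -0.29 (SE 0.08) and Agtrap, whose product binds the type 1 receptor, at -0.24 (SE 0.05), both falls being not called on the pan-neuronal scale (-0.15 and -0.10). Of 11 semaphorin and plexin genes beside Plxnc1, 4 rose and 2 fell in con/ko libraries, among them Plxnb1 at 0.54 (SE 0.12) and Plxna4 at -0.65 (SE 0.10). In CFA libraries only the coreceptor gene Nrp1 of that list was called, at 0.38 (SE 0.08), and it stood at the same value (SE 0.10) in con/ko libraries.

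Among 13 Wnt genes beside Wnt2b, 7 rose and 1 fell in con/ko libraries, where 47.3% of all genes were called. The ligand gene Wnt9a was at 0.49 (SE 0.07), the coreceptor gene Lrp5 at 0.78 (SE 0.12) and the receptor genes Fzd7 at 0.55 (SE 0.12) and Fzd4 at 0.28 (SE 0.06). The fall was that of the receptor gene Fzd3, at -0.23 (SE 0.07), which stood at 0.09 on the pan-neuronal scale. In CFA libraries 3 rose and 1 fell, with Fzd7 at 0.59 (SE 0.09), Lrp5 at 0.40 (SE 0.11), Lrp6 at 0.25 (SE 0.04) and Lef1, a nuclear effector of the pathway, at -0.72 (SE 0.12). Of 7 complement regulators beside Cd55, 3 rose and 0 fell in con/ko libraries, and 2 rose and 1 fell in CFA libraries. That fall was not called on the pan-neuronal scale. Among the complement regulators, soluble Serping1 was at 0.77 (SE 0.07) in con/ko libraries and at 0.21 (SE 0.05) in CFA libraries. Cd55 itself was called lower in con/ko libraries on the scale of all transcripts, but not on the pan-neuronal scale.

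Inside the cell, the Gq and phospholipase C list beside Gna14 had 1 of 7 genes higher and 3 lower in con/ko libraries: Plcb2, a phospholipase of blood cells, at 2.70 (SE 0.61), Gnaq at -0.22 (SE 0.07), Plcb1 at -0.17 (SE 0.04) and Gna11 at -0.12 (SE 0.03). The 3 falls turned on the pan-neuronal scale, to 0.10, 0.15 and 0.21. In CFA libraries Plcb2 was at 0.81 (SE 0.20) and Gna11 at -0.20 (SE 0.03; -0.06 and not called on the pan-neuronal scale), the others not being called. Of 8 other protein kinase C genes, Prkcz (-0.24, SE 0.05) and Prkcb (-0.22, SE 0.05) were lower in con/ko libraries (0.08 and 0.10 on the pan-neuronal scale), and Prkcb (0.18, SE 0.04) and Prkce (0.13, SE 0.03) higher in CFA libraries. Of 8 other Klf genes, 4 rose and 1 fell in con/ko libraries, Klf2 at 2.12 (SE 0.14), Klf4 at 1.56 (SE 0.11) and Klf7 at -0.35 (SE 0.08; -0.03 on the pan-neuronal scale) among them, and Klf3 alone was called in CFA libraries, at 0.28 (SE 0.08). The list medians in con/ko minus LDRG ran from -0.12 for the Gq list to 0.52 for the complement list, against 0.04 over all genes.

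Between C-coded and L-coded libraries 2 genes of these lists were called, Plxnb1 at 0.54 (SE 0.06) and Plcb2 at -2.62 (SE 0.34), where 1.35% of all genes were called. The levels of Plcb2 moved there with those of Ptprc and the other leukocyte markers.

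The 11 other measured genes of the NP1 class, among them Tmem45b, lay mostly on the same side as the members in the genotype comparisons. All 11 were below 0 in untreated ganglia (median -0.16), where 50.6% of all genes were below 0. The same held in the con/ko set (median -0.24, 47.6% of all genes) and in the CFA model (median -0.11, 47.5% of all genes). In the LDRG set 9 of 11 were below 0 (median -0.09, 51% of all genes), with Mrgprd (0.19) and Mrgprb5 (0.13) above 0. Tmem45b, the targeted gene and so not an independent case, was the only gene of them called. Between the untreated sets Tmem45b (0.28, SE 0.07) and the receptor gene Mrgprb5 (0.52, SE 0.14) were higher in con/ko libraries. Among those called lower, Scn10a, a sodium channel gene of nociceptors, was at -0.30 (SE 0.09) and Runx1 at -0.23 (SE 0.08), but they stood at 0.02 and 0.09 on the pan-neuronal scale. In CFA minus LDRG only Gfra2, a coreceptor of Ret, was called, at -0.25 (SE 0.06), and not on the pan-neuronal scale (-0.11). On the pan-neuronal scale 7 of the 11 genes were called higher in con/ko libraries, where 63.8% of all genes were called. In CFA libraries 5 of the 11 were called higher on that scale, where 32.4% of all genes were called. In neither comparison was a gene of the 11 called lower there.

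Across libraries within a set the members tended to stand high or low together. In the CFA model 35 of 36 pairs of members had a Pearson r above 0 (median 0.62, n = 8), and in the LDRG set 31 of 36 (median 0.50, n = 6), against 49.7% and 49.9% of all pairs among 14224 genes. The pairs share libraries and genotype groups, so they are not independent. The con/ko libraries fell into C-coded and L-coded libraries for 3 members, too few of each for a correlation, and no relation was tested there. Of 110 relations computed in the other two sets, 0 passed Benjamini-Hochberg adjustment, the lowest exact permutation p after adjustment being 0.167 for Pearson's r and 0.367 for Spearman's rho. For Prkcq and Gna14 in the CFA model, r was 0.87 (exact permutation p = 0.00531) and rho 0.90 (exact permutation p = 0.00456), and r was 0.61 without the 2 libraries farthest from the median Prkcq level. In the LDRG set the same pair had r = 0.83 (exact permutation p = 0.05) and rho = 0.60 (exact permutation p = 0.242), and r = -0.29 without the 2 farthest libraries, on which the relation therefore rested.

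Likeness of other genes was measured as the lowest Pearson r, over the 3 sets, with the mean standardised log2 CPM of the members. The 5 genes most like them were Rgs8, a regulator of G protein signalling, at 0.94, Syt1, a synaptic vesicle calcium sensor, at 0.90, Klhl5 at 0.89, Tmem72 at 0.87 and Acpp, the acid phosphatase long used to mark nonpeptidergic neurons, at 0.86. In the con/ko set this r also takes in the step between C-coded and L-coded libraries. From the CFA and LDRG sets alone, Rgs8 stood at 0.94, Syt1 at 0.92, Klhl5 at 0.89, Tmem72 at 0.87 and Acpp at 0.86, and all 5 were among the first 6 of 14224 genes. Syt1 is also among the 10 pan-neuronal genes. Of the NP1 class, Scn11a ranked 16 and Gfra2 27 of 14224 genes over the 3 sets (23 and 42 from the CFA and LDRG sets alone), while Mrgprd ranked 8949 (10844 from those sets alone). With Mrgprd the members had a median r of 0.53 in the CFA model (n = 8) and -0.36 in the LDRG set (n = 6).

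**Figure D5:**
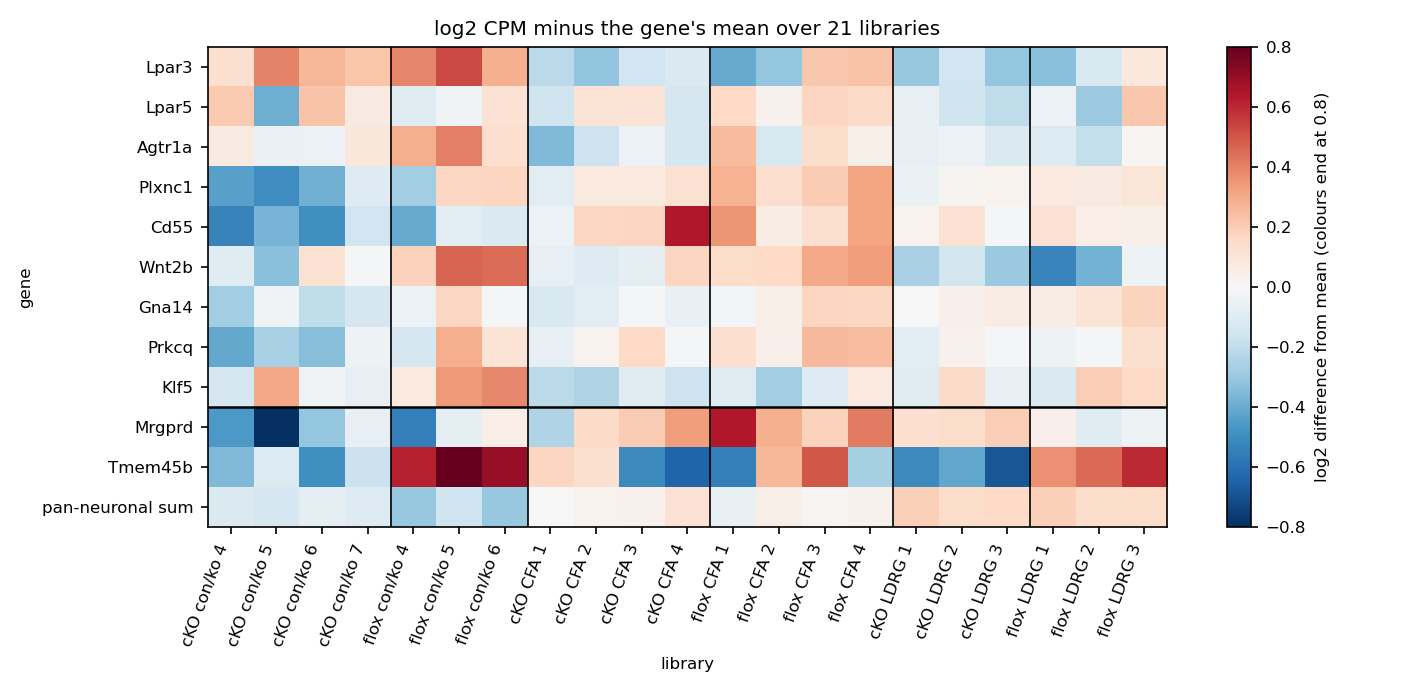
Log2 CPM minus the mean over all 21 libraries for the 9 NP1 markers, Mrgprd, Tmem45b and the pan-neuronal sum (rows) in each library (columns, by set and genotype); red is above and blue below the mean, with colours ending at 0.8. Lpar3 is above its mean across the con/ko libraries, where Cd55 is below, and the pan-neuronal sum is lowest in the con/ko libraries (6957 to 8177 CPM, against 9473 to 9800 CPM in LDRG libraries).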

How the data were processed

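Poly-A RNA of mouse dorsal root ganglia was sequenced as paired 150-base reads, per the labels' protocols. The deposited values are raw counts per gene, in a table of 14 libraries and 24524 genes (CFA and LDRG) and a table of 7 libraries and 24512 genes (con/ko). The submitters' processing notes name fastp 0.23.2, BWA 2.2.1, SAMtools 1.14, DESeq2 1.40.2 and the build mm10. The tool used for counting and its strand setting were not given in the sources used here. Counts of 4 were commoner than counts of 3 in the table of 14 (4068 against 2096 values), so some fragments may be represented by several counts. Columns of other samples numbered 0.

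Genotype and set were taken from sample titles and descriptions. Genes were tested with edgeR 4.0.16 in R 4.3.3. Comparisons within 1 table started from all its genes, and comparisons over both tables from the shared genes. Low genes were removed by filterByExpr at a minimum count of 10 and a minimum total of 15, libraries were scaled by TMM, and p-values of the quasi-likelihood F test were adjusted by Benjamini-Hochberg over all genes tested, with calls at adjusted p under 0.05. All 9 members passed the filter in every comparison. Counts of genes without overlap between groups used 16928 genes. Permutation tests and correlations used SciPy 1.17.1 in Python 3.11.15, and figures matplotlib 3.10.9. The tests were also run on simulated counts, drawn independently for each library with the same dispersion for all genes. Differences between libraries in cell type markers, as seen here, were not simulated.

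The members, gene lists and tests were chosen with earlier results of these data known. Named genes are the members, Mrgprd, Tmem45b, up to 4 genes of each list by smallest p, and the 5 genes most like the members; Fzd3, Runx1, Xist and Cd55b were added with their values in view. The values of some list genes that this rule selects are not reported here, though the counts include them. The lists were lysophosphatidic acid, angiotensin, semaphorin and plexin, Gq and phospholipase C beta, protein kinase C, complement, Wnt and Klf genes, and markers of ganglion cell types. Alternatives were DESeq2 1.42.0, RLE size factors in edgeR, a filter of only 1 count, a filter at a mean of 5 CPM, scaling to pan-neuronal genes, 1 fit of all 21 libraries, no name set term, the code letter as a term, a replicate block and leaving out each library. The genotype by name set test, the code letter in the fits of both untreated sets, the F or M letter as a term and the comparison of M-coded con/ko with LDRG libraries were added after the data were seen.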

Additional observations from a re-analysis of the deposited data

Results flagged for a closer look

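Among 27 groups of 4 libraries (9 members in cKO con/ko, cKO CFA and flox CFA libraries), 2 held a library far from the other 3, where chance gives about 1 in 20. Wnt2b lay at 21.4 CPM in cKO CFA library 4, above the other libraries labelled cKO at 17.7 to 18.2 CPM. Lpar5 lay at 7.49 CPM in flox CFA library 2, below the other libraries labelled flox at 8.14 to 8.22 CPM.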

How the results depend on the processing

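In all 62 alternatives of the 4 genotype comparisons, 0 members were called. Of 1545 member values under alternatives, 1472 kept their direction and their side of the threshold, 38 changed sign, 4 lost and 31 gained a call. Scaling to pan-neuronal genes gave 7 members called for con/ko minus LDRG (63.8% of all genes, against 47.3% scaled to all transcripts), 5 for CFA minus LDRG as the mean of genotypes (32.4% against 16.9%) and 4 among flox libraries (18.7% against 6.82%); signs changed for Plxnc1 (0.13), Prkcq (0.24) and Gna14 (0.20) in con/ko minus LDRG, for Gna14 in CFA minus LDRG (0.018 in cKO, 0.13 in flox, 0.072 as the mean), for Agtr1a in cKO CFA minus LDRG (0.026), for Lpar5 in the con/ko genotype difference (-0.10) and for Cd55 in that of the CFA model (-0.0092). The cause was not tested. With the code letter as a term, Plxnc1 (0.027) and Prkcq (0.11) changed sign in con/ko minus LDRG. With the F or M letter as a further term, Lpar5 changed sign in the con/ko genotype difference (-0.015) and in C minus L (0.056), as did Lpar3 in C minus L (-0.034). DESeq2 called 3 members between C-coded and L-coded libraries (8.93% of all genes).

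Leaving out each library in turn, the members called ran from 0 to 1 for CFA minus LDRG among flox libraries, from 1 to 2 as the mean of genotypes (Plxnc1 0.12 without cKO CFA library 1, Klf5 -0.23 without flox LDRG library 1 and -0.21 without flox CFA library 4) and from 4 to 6 for con/ko minus LDRG, where Gna14 gained its call in 8 of 13. Ranges that crossed 0 were -0.069 to 0.032 for Lpar5 in untreated ganglia; in the LDRG set -0.064 to 0.0019 for Cd55, -0.079 to 0.0034 for Prkcq, -0.031 to 0.22 for Wnt2b, -0.0304 to 0.072 for Agtr1a and -0.23 to 0.026 for Lpar5; -0.018 to 0.18 for Lpar5 in the con/ko set; and -0.11 to 0.13 for Cd55 in the CFA model (-0.088 to 0.16 in its interaction). For CFA minus LDRG among flox libraries they were -0.057 to 0.011 for Gna14 and -0.027 to 0.19 for Lpar3, and for C minus L -0.095 to 0.031 for Agtr1a, -0.27 to 0.13 for Klf5, -0.0197 to 0.079 for Lpar3 and -0.13 to 0.015 for Lpar5.

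Replicate numbers are shared between genotypes, but not every same-numbered pair deviated together in any set (r of deviations -0.02 to 0.10 in the CFA model, -0.03 to 0.15 in the LDRG set and -0.17 to 0.32 in the con/ko set). With a replicate block, 0 members were called in each genotype comparison, as without it; Plxnc1 stood at -0.27 in untreated ganglia and at -0.46 in the con/ko set. The lowest raw count of a member in any library was 372, for Lpar5; how far depth limits the values was not tested.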

Other observations

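Cd55b, the neighbouring paralog of Cd55 on chromosome 1, was listed at 0 CPM in some libraries of every group and at 13.5 to 31.6 CPM in the others. In the CFA model it had 0, 26.6, 26.9 and 30.1 CPM in libraries labelled cKO, against 31.4, 0, 0 and 16.6 CPM in libraries labelled flox, while Cd55 lay at 534 CPM or more in all 8. Levels of Cd55b are uncertain, because no source used here says how reads of near-identical copies were counted.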
